A study of Mus musculus with 46 samples.

Results

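CD31+ endothelial cells from mouse kidneys whose ureteric obstruction had been reversed were compared with CD31+ cells from kidneys that were still obstructed. Of the 44 sorted samples with a usable column, 7 entered this comparison by their labels, namely replicates 1, 2, 4 and 6 after reversal (rUUO) and replicates 1, 2 and 4 under obstruction (UUO). UUO replicate 3 was left out because 2 columns carry its name. The labels of all samples give a wild-type genotype, and the study's methods give C57BL/6 males aged 8 to 12 weeks. In UUO 1 ureter was tied, in rUUO the ureter was later reimplanted to release it, and 4 CD31+ samples from sham-operated mice served as the reference level. Reversal preceded the cull by 14 days. The study obstructed ureters for 2 or 7 days, and the labels of these UUO samples do not give the day. On either day the rUUO samples were taken later after surgery, so reversal and time since surgery cannot be told apart here. The labels number the samples without saying that each came from its own mouse, so p-values measure the spread between samples. Macrophages (F4/80+), stromal cells (PDGFRB+) and proximal tubular (PT) cells (LTL+) were sorted in the same study.

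Endothelial cells line the glomerular, peritubular and larger vessels of the kidney, and CD31, the product of Pecam1, sits at their junctions. Obstruction of the ureter raises pressure in the nephron, injures the tubules, recruits leukocytes and leads to fibrosis, while the capillaries around the tubules become sparse. Release of the obstruction allows partial repair, during which endothelial cells can keep inflammatory and stress programmes or return towards their resting state. In such bulk samples, fewer cells of a type and less RNA per cell cannot be told apart.

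The sorted cells carried the endothelial markers at high levels in both groups. Pecam1 was measured at 493 ± 48.0 FPKM (FPKM values correct fragment counts for transcript length and library size; SD, n = 3) in UUO and 478 ± 15.3 FPKM (SD, n = 4) in rUUO. Kdr, the main receptor for VEGF, was at 226 ± 36.3 FPKM in UUO and 280 ± 44.2 FPKM in rUUO, and Cdh5, the cadherin of endothelial junctions, at 404 ± 67.2 and 308 ± 18.3 FPKM. None of the 3 passed the test (limma adjusted p = 0.955, 0.627 and 0.504). The fitted log2 change of Pecam1 was -0.04, and its sign turned with the scaling. The values of 22 pan-endothelial genes summed to 4953 to 5745 FPKM in UUO and 5019 to 5458 FPKM in rUUO.

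Some values of the libraries moved with the groups. The FPKM of all genes summed to 646974 to 671978 in rUUO and to 673813 to 716683 in UUO, without overlap. Over the 13393 genes in the test, the log2 change had a median of 0.16 as deposited, 0.02 after quantile normalization and 0.23 after rescaling to equal sums, so changes are read against that shift. UUO replicate 4 stood apart, with a median correlation of 0.853 with the other 10 endothelial samples, where the others had 0.873 to 0.914. It had 253 genes more than 1 log2 unit above every other endothelial sample and 212 genes as far below. Genes of the mitochondrial genome took 32.5% ± 4.70 of the FPKM sum in rUUO and 33.0% ± 4.75 in UUO (exact two-sided permutation test, p = 0.943, where 0.0286 is the smallest possible). The files hold no counts, so the depth behind each value is unknown.

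Sequences that bear on what follows are printed first, from the RefSeq tables for GRCm38.p6. The mature microRNAs are those listed inside AA467197, the gene that fell most among the calls, and inside Tln2, which hosts the microRNA the study is about. For miR-147 only miR-147-5p is listed there. Capitals mark the seed, bases 2 to 8. The gene AA467197 spans chr2:122636986-122641191 on the plus strand, and the miR-147 hairpin (chr2:122640803-122640881) lies in an untranslated region of its transcripts. The hairpin of miR-190a (chr9:67236660-67236726) lies within Tln2 on the minus strand. Both hairpins are listed at 0 FPKM in the 7 samples. MicroRNAs of the sorted cells were measured by separate small RNA sequencing in the study, so these values do not give their levels.
mmu-miR-147-5p: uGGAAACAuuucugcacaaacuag
mmu-miR-190a-5p: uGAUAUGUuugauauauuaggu
mmu-miR-190a-3p: aCUAUAUAucaagcauauuccu

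The remaining sequences are stretches of 30 bases from promoters of genes described below, with the matched motif in capitals.
Zfp36, CArG box (bound by serum response factor), chr7:28379267-28379296, minus strand: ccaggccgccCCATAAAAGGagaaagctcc
Egr2, CArG box, chr10:67537787-67537816, plus strand: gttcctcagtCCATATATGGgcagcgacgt
Cxcl1, NF-kB site, chr5:90891164-90891193, plus strand: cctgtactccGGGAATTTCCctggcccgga
Nfkbia, NF-kB site, chr12:55492657-55492686, minus strand: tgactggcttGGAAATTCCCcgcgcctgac

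Reversal was accompanied by a change past the test in 8 of 13393 genes (0.0597%; limma on log2(FPKM + 1), Benjamini-Hochberg adjusted p under 0.05). Of these, 6 were higher in rUUO (0.0448% of all genes) and 2 were lower (0.0149%), while quantile normalization gave 11 calls, 5 higher and 6 lower. A further view of the same data counted 1369 genes (10.2%) with an unadjusted p under 0.05, of which 1029 were higher in rUUO (7.68% of all genes) and 340 lower (2.54%). Named here are 7 of the 8 genes past the test. They are the insulin-like growth factor binding proteins Igfbp3 and Igfbp2, AA467197, Dkk3, Clic3 and the pseudogenes Gm15501 and Mdk-ps1. In all 8 the rUUO and UUO samples did not overlap, which selection by a test on the same values favours. Over all genes 9.16% lay above and 2.17% below without overlap.

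Igfbp3 encodes the main circulating carrier of insulin-like growth factors and was the most abundant of these 7. It was at 373, 446 and 552 FPKM in the UUO samples and at 172, 140, 172 and 123 FPKM in the rUUO samples. Every UUO sample lay above every rUUO sample, and the rUUO values fell in and around the sham range of 137 to 193 FPKM. The fall was 1.58 on the log2 scale (SE 0.19; limma adjusted p = 0.00274). Igfbp3 lies at chr11:7206086-7213923.

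Its relative Igfbp2, which also binds insulin-like growth factors, moved the other way from a level near 0. The UUO samples were at 0.09, 0 and 0.81 FPKM, and the rUUO samples at 4.72, 10.7, 4.77 and 9.07 FPKM. The sham samples, at 0.09 to 0.72 FPKM, lay with the UUO samples. The log2 change was 2.65 (SE 0.42; limma adjusted p = 0.0267) on a scale with a pseudocount of 1, which understates the change of such low values. With a pseudocount of 0.1, Igfbp2, AA467197, Dkk3 and Mdk-ps1 did not pass the test. Igfbp2 lies at chr1:72824503-72852474. The ligand Igf1 was at 37.5, 31.1 and 45.5 FPKM in UUO and at 72.7, 60.1, 93.2 and 80.7 FPKM in rUUO, with a log2 difference of 0.99 that did not pass the test (limma adjusted p = 0.167).

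AA467197 is the mouse counterpart of NMES1, a small mitochondrial protein known from inflamed tissue. It was at 62.6, 53.4 and 23.1 FPKM in UUO and at 4.69, 5.80, 2.90 and 3.63 FPKM in rUUO. The lowest UUO sample was replicate 4, and it still lay above all rUUO samples. AA467197 fell by 3.09 on the log2 scale (SE 0.45; limma adjusted p = 0.0175), to a level above all sham samples, which were at 0.20 to 2.73 FPKM.

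Dkk3, a secreted member of the dickkopf family, was at 1.08, 1.07 and 1.06 FPKM in UUO and at 5.85, 9.73, 8.80 and 12.6 FPKM in rUUO. The sham samples ranged from 0.58 to 1.86 FPKM, so that after reversal both Igfbp2 and Dkk3 stood above every sham and UUO sample. The log2 change of Dkk3 (chr7:112116017-112159057) was 2.26 (SE 0.36; limma adjusted p = 0.0267). Both genes were more abundant in sorted stromal cells, where rUUO samples averaged 81.6 FPKM for Igfbp2 and 219 FPKM for Dkk3. Stromal markers in CD31+ cells are given below, and the part of stromal RNA in these calls was not tested.

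Clic3, of the chloride intracellular channel family, was at 2.87, 3.74 and 3.47 FPKM in UUO, at 9.56, 20.7, 15.01 and 25.5 FPKM in rUUO and at 11.7 to 24.9 FPKM in sham. The rUUO samples lay in or near the sham range, and the UUO samples lay below it. The log2 change of Clic3 (chr2:25456838-25458776) was 2.02 (SE 0.34; limma adjusted p = 0.0321).

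The 2 pseudogenes are uncertain, since reads of a near-identical parent gene can be assigned to them. Gm15501, a transcribed processed pseudogene at chr7:93178983-93184176, was at 1.23, 0.38 and 0 FPKM in UUO and at 9.65, 14.8, 24.3 and 18.3 FPKM in rUUO (log2 change 3.54, SE 0.41; limma adjusted p = 0.00274). Mdk-ps1 (chr11:102545702-102546022) is listed at 0 in all UUO samples and was at 6.75, 10.2, 12.7 and 3.13 FPKM in rUUO (adjusted p = 0.0267). Midkine itself, the growth factor encoded by Mdk, overlapped between the groups, with 3.31, 3.42 and 11.4 FPKM in UUO and 3.24, 13.2, 6.45 and 14.4 FPKM in rUUO.

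**Figure D1:**
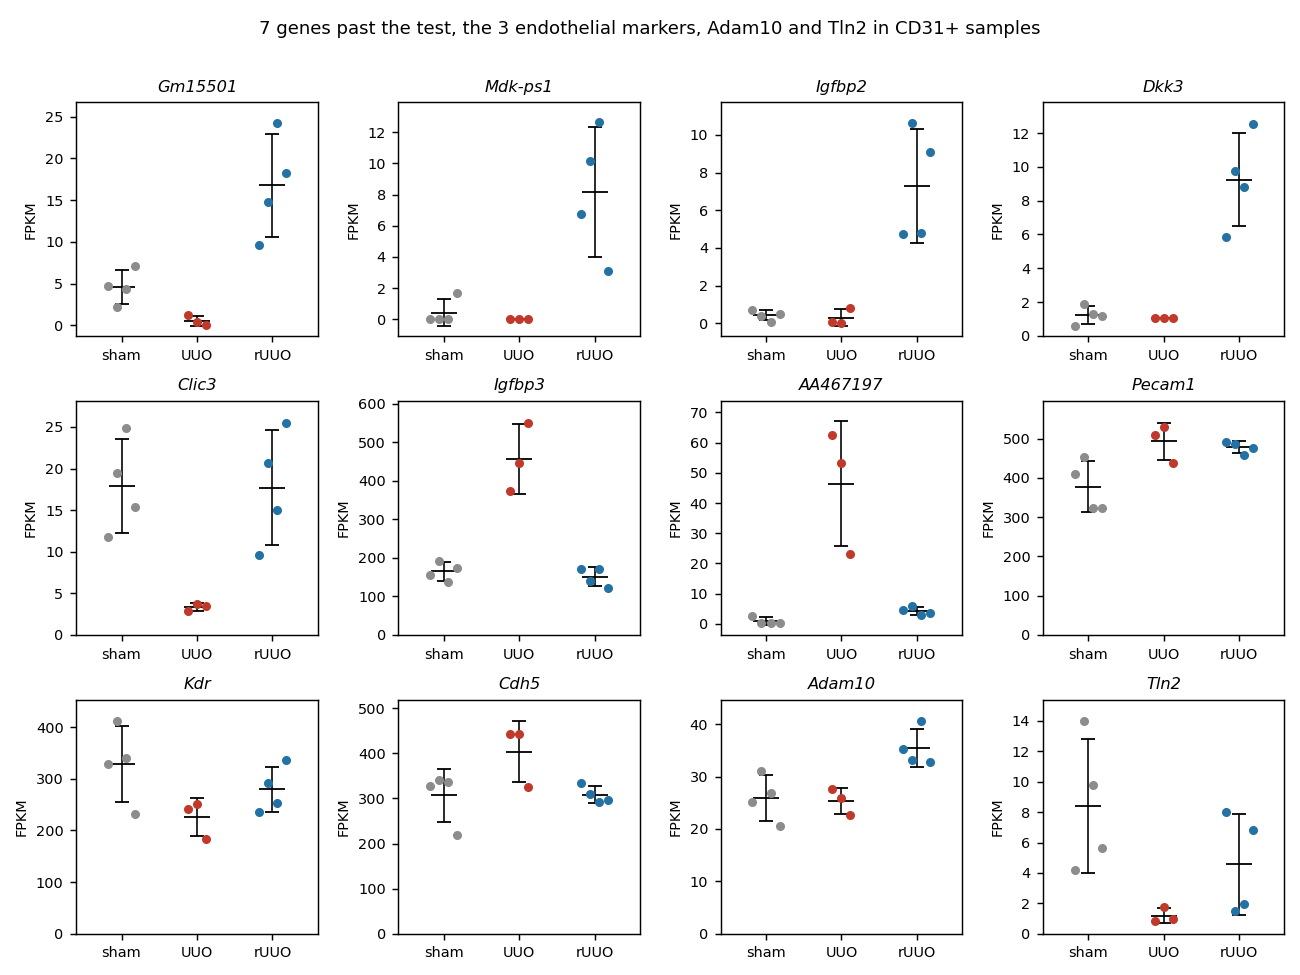
Level in FPKM (vertical axis, linear) of 7 genes past the test, the markers Pecam1, Kdr and Cdh5, Adam10 and Tln2 in the CD31+ samples by surgery. Points are samples, bars are the mean and SD (sham n = 4, UUO n = 3, rUUO n = 4); for the 7 genes no UUO point reaches an rUUO point, and for the 3 markers the groups overlap.

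**Figure D2:**
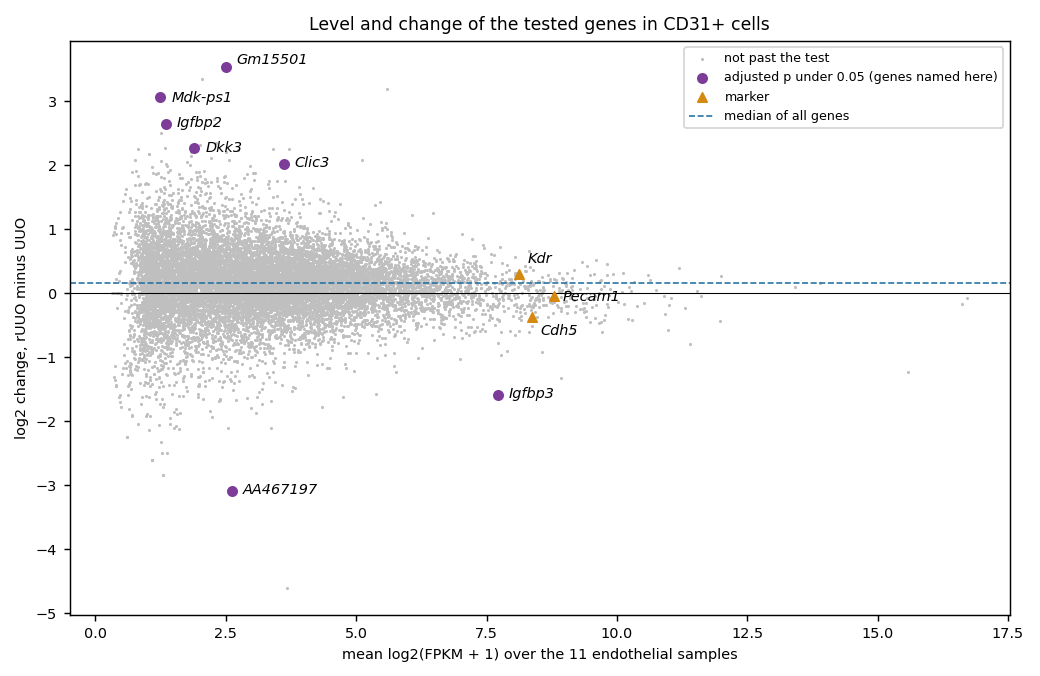
Log2 change from UUO to rUUO (vertical axis) against the mean log2(FPKM + 1) over the 11 endothelial samples (horizontal axis) for the genes tested, leaving out genes not reported here. Purple points passed the test and triangles are the markers; the dashed line marks the median of all genes, 0.16, and Igfbp3 lies furthest right of the purple points.

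How far these calls rested on 1 library differed between the genes. Igfbp3 and Gm15501 passed the test whichever of the 7 samples was left out. Igfbp3 did not pass with no intensity trend, and neither gene passed with no filter on low values or with the replicate number as a block. AA467197 lost its call without UUO replicate 1 or 2 or rUUO replicate 4 or 6. Igfbp2 kept it only without UUO replicate 4 or rUUO replicate 1, Clic3 and Dkk3 only without rUUO replicate 1, and Mdk-ps1 only without rUUO replicate 6. Without UUO replicate 4 the calls were AA467197, Gm15501, Igfbp2 and Igfbp3 with Cp, Enpep, Fos and Satb1 (8 genes in all, of which 4 were shared). Without rUUO replicate 4 only Gm15501 and Igfbp3 passed. Without rUUO replicate 2 or 6, or UUO replicate 1, the count was 4, and without UUO replicate 2 it was 5. With the block no gene passed.

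Beyond single calls, 1227 genes (9.16%) had every rUUO sample above every UUO sample, and 290 genes (2.17%) every rUUO sample below. After quantile normalization these shares were 5.41% and 3.63%, after rescaling without mitochondrial genes 10.6% and 1.55%, and without UUO replicate 4 they were 16.7% and 5.68%. The following gene groups are described by such counts, by the median of the fitted log2 changes and by named members. In all, 35 lists were described, with 493 of 547 genes tested, and 2 of them passed the test, Igfbp3 among them. Genes named for their lack of overlap were chosen after their values were seen.

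**Figure D3:**
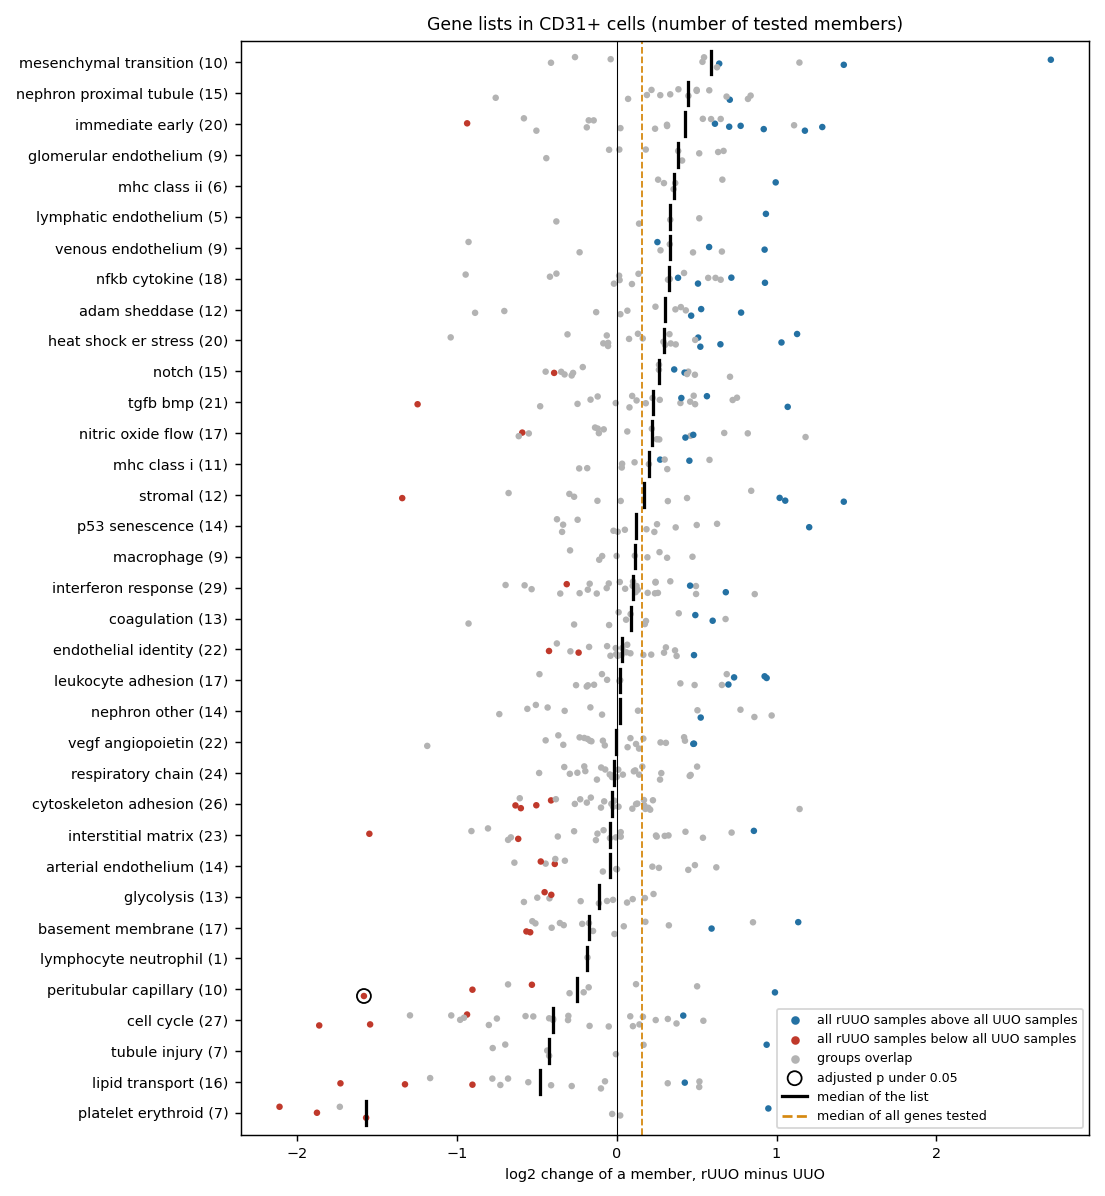
Fitted log2 change from UUO to rUUO (horizontal axis) of the tested members of the 35 gene lists (rows, with the number tested), leaving out genes not reported here. Blue and red points had no overlap between groups, circled points passed the test, black bars are list medians and the dashed line is the median of all genes, 0.16; Igfbp3 is the circled point.

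Immediate early genes, the rapid transcription factors and feedback regulators that follow growth factor and stress signals, held more members above than below. Of 20 members, 6 had every rUUO sample above every UUO sample and 1 below, against 9.16% and 2.17% of all genes. The median log2 change was 0.43 against 0.16 for all genes. Without UUO replicate 4, 7 lay above and 3 below, against 16.7% and 5.68% of all genes. Fos, a subunit of the AP-1 factor, was at 27.5, 27.7 and 55.3 FPKM in UUO and at 66.0, 86.0, 92.5 and 78.2 FPKM in rUUO. The sham samples were at 10.1 to 16.2 FPKM, so Fos stood highest after reversal. In macrophages Fos also rose, from a mean of 122 FPKM in UUO to 240 FPKM in rUUO. Its means were 119 and 122 FPKM in stromal cells and 23.7 and 27.2 FPKM in PT cells.

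Its partner Fosb was at 14.4, 26.5 and 28.6 FPKM in UUO and at 47.5, 68.6, 59.9 and 49.1 FPKM in rUUO. Neither passed the test (log2 difference 1.18, SE 0.27, limma adjusted p = 0.128 for Fos; 1.29, SE 0.28, adjusted p = 0.11 for Fosb), though Fos did without UUO replicate 4 (adjusted p = 0.0404). Zfp36, which binds and destabilises inflammatory mRNAs, was at 121 ± 33.7 FPKM in UUO, 226 ± 43.1 FPKM in rUUO and 79.7 ± 4.35 FPKM in sham. Jun, Atf3 and Ier3 had the same lack of overlap. Myc, which drives growth, was the exception, at 14.1 ± 2.15 FPKM in UUO and 6.90 ± 1.03 FPKM in rUUO.

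A CArG box was searched on both strands in promoter windows of 250 bases before to 50 after each start. It was found for Egr2 and Zfp36, 2 of the 15 list members with a window, and for 1.81% of 27025 genes. Zfp36 had 1 match and Egr2 had 2, of which 1 of Egr2 and that of Zfp36 are printed above.

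Heat shock genes, which encode chaperones for misfolded proteins, were listed together with genes of the unfolded protein response. Of the 20 members of this joint list, 5 lay above and none below, against 9.16% and 2.17% of all genes. The list median was 0.30 (0.12 without UUO replicate 4). Hspa1a was at 44.1, 46.0 and 40.3 FPKM in UUO and at 67.8, 75.8, 123 and 103 FPKM in rUUO. Its neighbour Hspa1b, a near-identical copy whose reads may be shared, was at 19.96 ± 5.07 and 45.5 ± 13.5 FPKM. In sham the pair had lower means, 24.6 ± 5.70 and 12.4 ± 5.03 FPKM. The log2 differences were 1.03 (SE 0.24; limma adjusted p = 0.133) and 1.13 (SE 0.31; adjusted p = 0.213). The mean of Hspa1a also rose from UUO to rUUO in macrophages (96.2 to 158 FPKM) and stromal cells (18.7 to 43.2 FPKM). In PT cells it fell (20.8 to 15.7 FPKM). A heat shock element (GAANNTTCNNGAA or its reverse complement) was found in 1 of the 18 members of the joint list with a promoter window and in 0.662% of all genes.

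Among the adhesion molecules that capture leukocytes from the blood, Vcam1 and Selp had their highest values after reversal. Vcam1, the ligand of leukocyte integrins, was at 31.6, 23.4 and 38.3 FPKM in UUO and at 62.2, 52.95, 70.2 and 53.7 FPKM in rUUO, with 10.3 to 15.3 FPKM in sham. Its mean also rose from UUO to rUUO in macrophages (28.4 to 60.4 FPKM) and stromal cells (41.5 to 73.4 FPKM). In PT cells it fell (23.4 to 13.2 FPKM). P-selectin (Selp) was at 41.0, 24.7 and 25.9 FPKM in UUO and at 60.9, 44.5, 91.6 and 43.5 FPKM in rUUO, against 1.64 to 7.55 FPKM in sham. Icam1 was at 26.1 ± 1.29 FPKM in UUO and 43.1 ± 3.80 FPKM in rUUO. All 3 were without overlap between UUO and rUUO, but none passed the test (limma adjusted p = 0.168, 0.433 and 0.238). Of the 17 members tested, 4 lay above, against 9.16% of all genes, among them the chemokine Cxcl1. The list median of 0.02 was below that of all genes.

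Of 18 tested genes of NF-kB feedback and cytokines, 4 had rUUO above UUO without overlap, against 9.16% of all genes. The list median was 0.33. Nfkbia, the inhibitor that NF-kB itself induces, was at 13.8 ± 0.96 FPKM in UUO and 20.1 ± 2.95 FPKM in rUUO (limma adjusted p = 0.517). A consensus NF-kB site was found in 14 of the 29 members of the adhesion and NF-kB lists that had a promoter window and in 9.55% of all genes. Many of these genes are on the lists because they are known NF-kB targets, so the share describes the lists and not the response. MHC class I genes of the same samples included H2-D1, at 788 ± 103 FPKM in UUO and 1075 ± 66.5 FPKM in rUUO, and B2m, at 3915 ± 532 and 4698 ± 62.6 FPKM, both without overlap. Only 2 of the 11 had this pattern, against 9.16% of all genes, and H2-K1 overlapped.

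**Figure D4:**
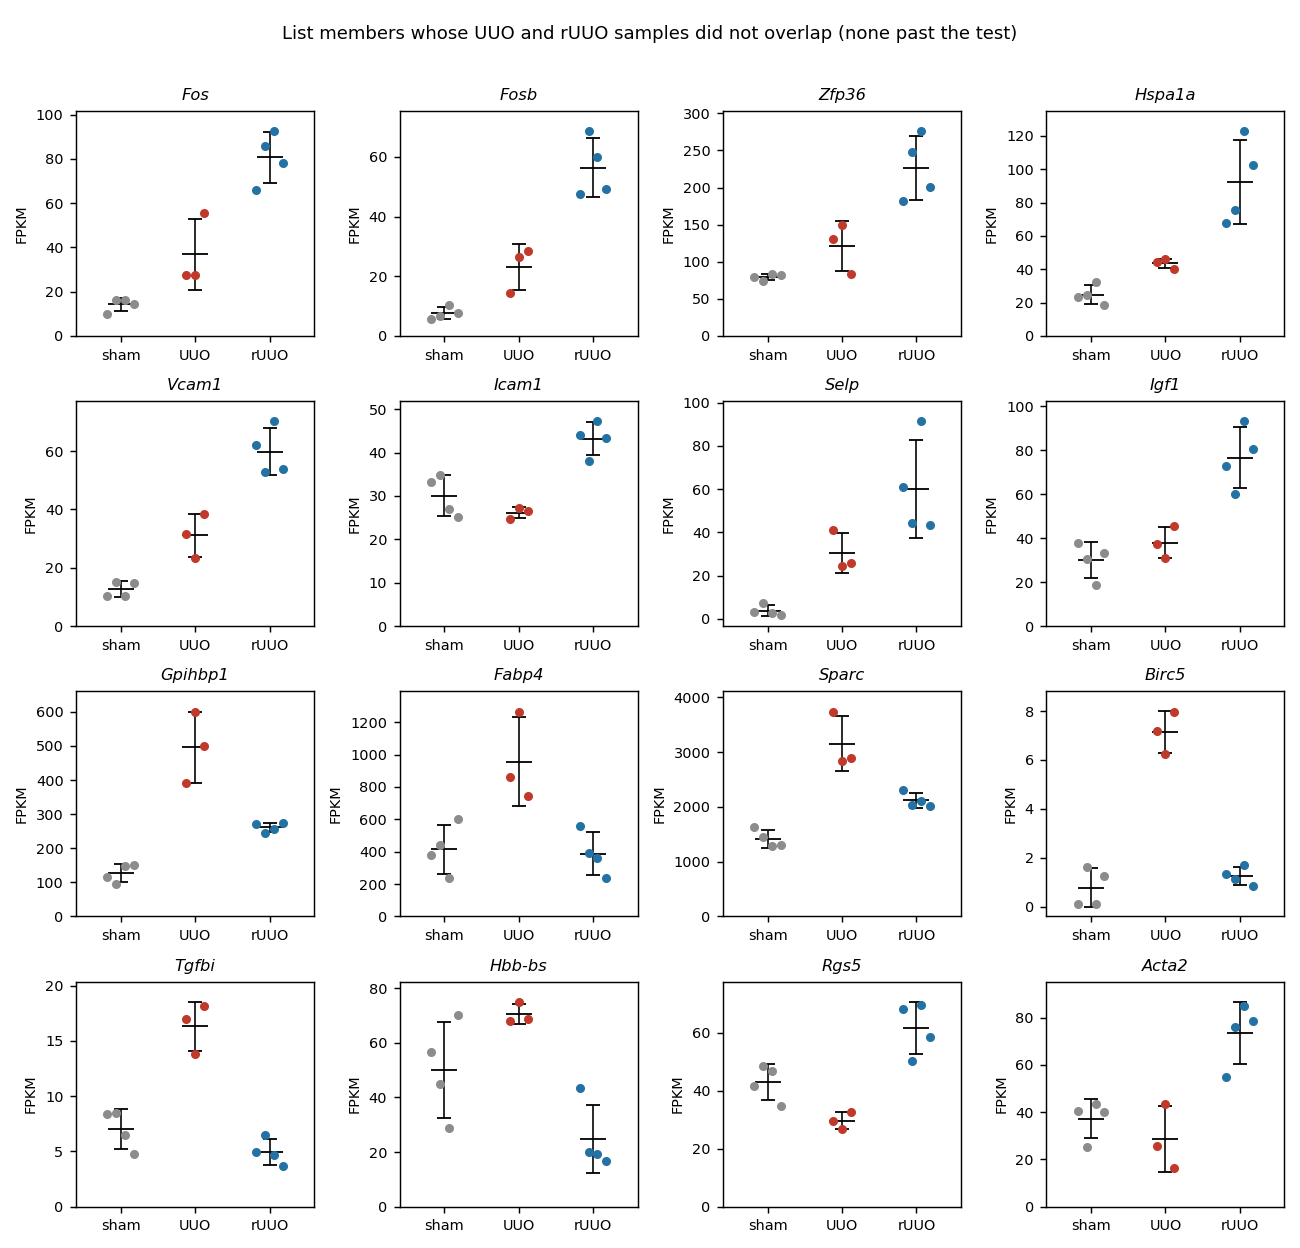
Level in FPKM (vertical axis, linear) of 16 list members in the CD31+ samples by surgery, chosen for lack of overlap between UUO and rUUO. Points are samples, bars are the mean and SD; Fos, Fosb, Hspa1a, Vcam1 and Selp are highest in rUUO, while Tgfbi, Fabp4 and Birc5 are highest in UUO and none of the 16 passed the test.

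Among genes of fatty acid handling more members lay below than above. Of 16 genes of lipid transport, 3 had every rUUO sample below every UUO sample and 1 above, against 2.17% and 9.16% of all genes. The median log2 change was -0.48. Without UUO replicate 4, 7 lay below, against 5.68% of all genes. Gpihbp1, which anchors lipoprotein lipase to the capillary wall, was at 391, 599 and 499 FPKM in UUO and at 270, 244, 257 and 274 FPKM in rUUO. The sham samples, at 94.7 to 150 FPKM, were lower still.

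Fabp4, a fatty acid chaperone of capillaries, was at 862, 1265 and 744 FPKM in UUO and at 562, 391, 361 and 240 FPKM in rUUO, which overlapped the sham range of 237 to 604 FPKM. Their log2 differences were -0.90 (SE 0.19; limma adjusted p = 0.11) and -1.33 (SE 0.30; adjusted p = 0.13). Meox2, a transcription factor of fatty acid transport in endothelium, was at 7.16 ± 4.18 FPKM in UUO and 1.46 ± 1.16 FPKM in rUUO. In the list of peritubular capillary genes, 3 of 10 lay below, against 2.17% of all genes, namely Igfbp3, Gpihbp1 and Plvap. Igf1 lay above, against 9.16% of all genes. Igfbp7, the most abundant of that list, overlapped at 547 ± 99.4 and 486 ± 94.7 FPKM.

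Genes of the basement membrane and matrix included members on both sides. Sparc, a collagen-binding glycoprotein, was at 3737, 2832 and 2897 FPKM in UUO, at 2314, 2031, 2102 and 2022 FPKM in rUUO and at 1286 to 1627 FPKM in sham, an intermediate level after reversal. Its log2 difference was -0.57 as deposited and -0.27 after quantile normalization (limma adjusted p = 0.213 and 0.724). Col4a1, the common collagen IV chain, was at 161 ± 20.9 FPKM in UUO and 110 ± 14.8 FPKM in rUUO, while Col4a3, a chain of the glomerular membrane, was at 3.98 ± 1.14 and 9.91 ± 2.33 FPKM. Of 17 basement membrane genes, 2 lay above and 2 below, against 9.16% and 2.17% of all genes. A lower fitted level was found for 11 of them, with a list median log2 change of -0.17. Without UUO replicate 4, 3 lay above and 6 below, against 16.7% and 5.68% of all genes. Of 23 fibrillar collagen and other matrix genes, 1 lay above and 2 below, against 9.16% and 2.17% of all genes. For these the counts without UUO replicate 4 were 4 and 3, against 16.7% and 5.68% of all genes.

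Tgfbi, a matrix protein induced by TGF-beta, was at 17.0, 13.9 and 18.1 FPKM in UUO and at 4.96, 6.49, 4.69 and 3.71 FPKM in rUUO. The rUUO samples lay with the sham samples, at 4.76 to 8.46 FPKM, and the log2 difference was -1.55 (SE 0.29; limma adjusted p = 0.083). Tgfbi passed the test after quantile normalization (adjusted p = 0.0495). Among 21 TGF-beta and BMP genes, 3 lay above and 1 below, against 9.16% and 2.17% of all genes. Tgfbi and Inhbb both lay below without overlap, so that list does not hold both. Without UUO replicate 4 the counts were 8 and 2, against 16.7% and 5.68% of all genes. Inhbb, a subunit of activin B, was at 30.1 ± 5.73 FPKM in UUO, 13.03 ± 6.48 FPKM in rUUO and 2.22 ± 0.93 FPKM in sham. Bmp6, a ligand released by endothelium, was at 13.9 ± 5.18, 29.8 ± 8.11 and 48.3 ± 17.6 FPKM in the same order. Id3, a BMP target, overlapped at 133 ± 28.4 and 161 ± 33.6 FPKM.

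Cell cycle genes were at low levels, and those without overlap were mostly lower after reversal. Birc5, an inhibitor of apoptosis of dividing cells, was at 7.20, 6.24 and 7.98 FPKM in UUO, at 1.33, 1.13, 1.69 and 0.85 FPKM in rUUO and at 0.10 to 1.62 FPKM in sham. The mean of Birc5 was also lower in rUUO than in UUO in stromal cells (2.3 ± 1.5 and 13.6 ± 18.6 FPKM) and macrophages (9.5 ± 4.3 and 16.8 ± 12.7 FPKM). The stromal UUO samples ranged from 4.14 to 41.55 FPKM. In PT cells the means were close (1.9 ± 1.3 and 2.1 ± 1.3 FPKM). Rrm2, a subunit of ribonucleotide reductase, was at 4.15 ± 1.59 FPKM in UUO and 0.77 ± 0.55 FPKM in rUUO. Its rUUO and UUO means were 5.50 and 9.12 FPKM in macrophages and 3.23 and 7.52 FPKM in stromal cells. In PT cells the rUUO mean was the higher (1.41 and 0.85 FPKM). The median over 27 tested members was -0.40, with 3 below and 1 above, against 2.17% and 9.16% of all genes. None passed the test (limma adjusted p = 0.117 for Birc5 and 0.278 for Rrm2). Without UUO replicate 4, 10 lay below and 2 above, with a median of -0.78, where 5.68% and 16.7% of all genes did.

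Coagulation and flow genes held members on both sides. Thrombomodulin (Thbd), an anticoagulant receptor, was at 169 ± 27.4 FPKM in UUO and 256 ± 37.7 FPKM in rUUO, and Tfpi, the tissue factor pathway inhibitor, at 26.3 ± 4.18 and 37.6 ± 7.33 FPKM. Both were without overlap, and neither passed the test (limma adjusted p = 0.356 and 0.459). Of 13 coagulation genes, 2 lay above and 1 below, against 9.16% and 2.17% of all genes. Without UUO replicate 4 the counts were 2 and 3, against 16.7% and 5.68% of all genes. Klf2, induced by laminar flow, was at 24.3 ± 0.24 FPKM in UUO and 33.3 ± 4.31 FPKM in rUUO, with 32.6 ± 3.49 FPKM in sham.

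Cav1, of endothelial caveolae, was at 236 ± 26.4 FPKM in UUO and 158 ± 34.1 FPKM in rUUO. The angiopoietin receptor Tek was at 113 ± 6.18 FPKM in UUO and 159 ± 16.3 FPKM in rUUO, and the transcription factor Sox18 at 247 ± 16.9 and 184 ± 12.04 FPKM. Of 22 pan-endothelial genes, Tek alone lay above and 2 lay below, against 9.16% and 2.17% of all genes. Without UUO replicate 4 the counts were 4 and 5, against 16.7% and 5.68% of all genes. The prostaglandin transporter Slco2a1, a venous gene, was at 107 ± 10.7 and 161 ± 24.8 FPKM, and the arterial ephrin Efnb2 overlapped at 111 ± 12.7 and 130 ± 9.38 FPKM.

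Of 26 tested genes of the actin cytoskeleton and adhesion, 4 lay below and none above, against 2.17% and 9.16% of all genes. Without UUO replicate 4 the counts were 8 and 1, against 5.68% and 16.7% of all genes. Actb was at 1573 ± 7.86 FPKM in UUO and 1186 ± 97.2 FPKM in rUUO, and Tmsb4x, which binds actin monomers, at 1138 ± 79.5 and 764 ± 186 FPKM. The glycolytic enzyme Gapdh was at 872 ± 102 and 637 ± 62.1 FPKM. Actb and Gapdh, often taken as constant references, thus differed without overlap between the groups, although neither passed the test (limma adjusted p = 0.399 and 0.37).

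Adam10, a protease that sheds surface proteins, and Tln2, which links integrins to actin, are genes the study followed up. Adam10 was at 27.6, 25.95 and 22.7 FPKM in UUO and at 35.3, 33.2, 40.6 and 32.8 FPKM in rUUO, with 20.5 to 31.1 FPKM in sham. All rUUO samples lay above all UUO and sham samples, yet the log2 difference of 0.47 (SE 0.21) did not pass the test (limma adjusted p = 0.4658). Tspan5, a tetraspanin partner of Adam10, was at 6.70 ± 1.03 FPKM in UUO and 12.2 ± 1.27 FPKM in rUUO, and its inhibitor Timp3 at 576 ± 33.8 and 832 ± 47.9 FPKM. These 3 were the members without overlap among 12 tested genes of the list, against 9.16% above and 2.17% below over all genes.

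Tln2 was at 0.83, 1.73 and 1.00 FPKM in UUO, at 7.98, 1.47, 1.96 and 6.83 FPKM in rUUO and at 4.18 to 13.98 FPKM in sham. The rUUO samples fell into a low and a high pair and overlapped UUO (limma adjusted p = 0.451).

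Markers of other cell types that the CD31 gate could hold were set beside these results. The summed level of 13 stromal genes was 112 to 129.6 FPKM in UUO, 175 to 211 FPKM in rUUO and 122 to 148 FPKM in sham, where sorted stromal cells of sham kidneys had 1915 FPKM. Rgs5 and Acta2 were left out after their values were seen, as the 2 genes that carried most of the difference of the sum. The other 11 genes summed to 48.4 to 74.3 FPKM in UUO and 48.7 to 73.8 FPKM in rUUO, an overlap that this choice favoured. Of 12 tested stromal genes, 7 had a higher and 5 a lower fitted level in rUUO, with a median log2 change of 0.17. Rgs5, of pericytes, was at 29.6, 27.0 and 32.7 FPKM in UUO and at 68.3, 50.4, 69.5 and 58.6 FPKM in rUUO, and smooth muscle actin (Acta2) at 25.7, 43.7 and 16.4 and at 54.9, 76.1, 85.0 and 78.4 FPKM. Neither passed the test (limma adjusted p = 0.0909 and 0.0958), though Acta2 did without UUO replicate 2 (adjusted p = 0.0467). Nor did the contractile genes Cnn1 (0.963 ± 1.27 and 11.8 ± 6.82 FPKM) and Myh11 (3.73 ± 2.39 and 8.11 ± 1.58 FPKM) pass. Renin (Ren1), made by specialised mural cells, went the other way, at 11.3 ± 1.27 FPKM in UUO and 4.24 ± 2.04 FPKM in rUUO. The part of stromal RNA in the values of CD31+ cells was not tested.

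Genes of podocytes, the epithelium around glomerular capillaries, were also measured. Podocalyxin (Podxl), which glomerular endothelium also expresses, was at 256, 257 and 244 FPKM in UUO and at 351, 373, 381 and 351 FPKM in rUUO. Ptpro and Wt1, outside the lists and chosen after their values were seen, were at 0.61 ± 0.43 and 1.90 ± 0.93 FPKM in UUO and at 4.51 ± 0.88 and 8.83 ± 3.01 FPKM in rUUO, without overlap. Neither is confined to podocytes in this series. Ptpro averaged 56.5 FPKM in UUO and 51.9 FPKM in rUUO macrophages, and Wt1 13.7 and 40.8 FPKM in stromal cells. Nephrin (Nphs1) overlapped, with means of 2.44 and 4.71 FPKM. The 14 genes of podocytes and other nephron segments summed to 383 to 546 FPKM in UUO, 508 to 705 FPKM in rUUO and 655 to 1521 FPKM in sham. Without Podxl and Umod the sums were 75.3 to 164 FPKM in UUO and 86.2 to 184 FPKM in rUUO, which overlapped, and this pair too was chosen after the values were seen. Of the 14, 7 had a higher and 7 a lower fitted level in rUUO, with a median log2 change of 0.02 that was 0.46 without UUO replicate 4. The part of nephron RNA in the values of CD31+ cells was not tested.

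Proximal tubule markers summed to 117 to 176 FPKM in UUO, 72.2 to 272 FPKM in rUUO and 213 to 553 FPKM in sham. Sorted PT cells of sham kidneys had 8655 FPKM. Of these 15 genes, 14 had a higher and 1 a lower fitted level in rUUO, although the sums overlapped. Their median log2 change was 0.45, against 0.16 for all genes (0.22 against 0.02 after quantile normalization). Gatm, the creatine enzyme of the proximal tubule, was without overlap at 9.65 ± 1.75 and 16.4 ± 2.75 FPKM, while Kap and Umod overlapped. Macrophage markers summed to 70.6 to 128 FPKM in UUO and 75.0 to 132 FPKM in rUUO, against 14073 FPKM in sorted macrophages of sham kidneys. Platelet and erythroid genes summed to 120.5 to 145 FPKM in UUO and 38.7 to 83.7 FPKM in rUUO. Haemoglobin beta (Hbb-bs) was at 68.0, 74.9 and 68.7 FPKM in UUO and at 43.4, 20.1, 19.3 and 16.8 FPKM in rUUO (limma adjusted p = 0.0955), and Hba-a2 at 19.4 ± 3.98 and 3.89 ± 1.78 FPKM.

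Lymphocyte and neutrophil markers were near 0, with sums of 2.73 to 6.90 FPKM in UUO and 1.54 to 2.28 FPKM in rUUO, and Cd3g, Gzma and Retnlg listed at 0 in all 7 samples. Lymphatic genes summed to 82.7 to 96.5 and 91.6 to 115 FPKM, with Mmrn1 at 0 in all 7.

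Whether a change was particular to endothelial cells was tested as the difference between the change from UUO to rUUO in CD31+ cells and the change in each other population, in 1 limma fit over the 44 samples. Samples of several populations may share a mouse and were treated as independent. The difference passed the test for 278 genes (2.08%) against PT cells, 18 genes (0.134%) against macrophages and 96 genes (0.717%) against stromal cells. Against PT cells, 264 of the 278 were relatively higher in endothelial cells, where the median difference over all genes was 0.41. After quantile normalization that count was 72, with 36 in each direction.

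There were 5 genes that passed against all 3 populations, of which AA467197, Ms4a6d, Slco1a4 and 5830468F06Rik are named, after their values were seen. In macrophages AA467197 was at 12.05 ± 5.97 FPKM (SD, n = 4) in UUO and 29.5 ± 9.12 FPKM (SD, n = 3) in rUUO, and in stromal cells at 0.49 ± 0.74 and 3.37 ± 1.25 FPKM (n = 4 each), both in the direction opposite to the fall in endothelial cells. The log2 changes differed by -4.40 (SE 0.54; limma adjusted p = 9.11e-06) and -4.69 (SE 0.52; adjusted p = 3.29e-07). Against PT cells, where it was below 1 FPKM in every UUO and rUUO sample, the difference was -2.73 (adjusted p = 0.00506).

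Slco1a4, an organic anion transporter, had means of 1.00 and 7.47 FPKM in endothelial cells. In the other populations its UUO and rUUO means were at most 0.78 FPKM, and those of 5830468F06Rik at most 0.13 FPKM. For these genes the differences set the endothelial change against values near the floor. Within endothelial cells AA467197 passed the test, while Slco1a4, Ms4a6d and 5830468F06Rik did not (limma adjusted p = 0.109, 0.0909 and 0.136). Ms4a6d, a membrane protein of macrophages, was at 11.6, 4.95 and 10.3 FPKM in UUO and at 0.80, 0.63, 1.39 and 2.22 FPKM in rUUO endothelial cells, while macrophages averaged 75.8 and 62.7 FPKM. It too was near the floor in stromal cells (means 0.42 and 0.405 FPKM) and PT cells (0.22 and 0.42 FPKM).

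The remaining called genes passed against some populations or none. The change of Igfbp2 differed from PT cells by 3.02 (SE 0.56; limma adjusted p = 0.00339) and from macrophages by 2.67 (SE 0.56; adjusted p = 0.0297). In stromal cells Igfbp2 went from 5.49 ± 2.30 to 81.6 ± 15.7 FPKM, and the difference of -1.09 (SE 0.54) did not pass the test (adjusted p = 0.438). The change of Dkk3 differed from PT cells by 2.65 (adjusted p = 0.00397) and did not pass against macrophages or stromal cells (adjusted p = 0.398 and 0.275). For Igfbp3 and Clic3 no difference passed the test, with limma adjusted p of 0.115 to 0.286 for Igfbp3.

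The fitted changes of Rgs5 and Acta2 had opposite signs in endothelial and stromal cells. In stromal cells Rgs5 was at 220 ± 88.7 FPKM in UUO and 90.9 ± 27.4 FPKM in rUUO and Acta2 at 413 ± 159 and 255 ± 19.3 FPKM. Their log2 changes in endothelial cells exceeded those in stromal cells by 2.24 (limma adjusted p = 0.0156) and 2.02 (adjusted p = 0.0455). For Tgfbi the difference from stromal cells was -2.85 (adjusted p = 4.23e-05), with 47.5 ± 11.7 FPKM in UUO and 120 ± 36.7 FPKM in rUUO stromal cells.

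**Figure D5:**
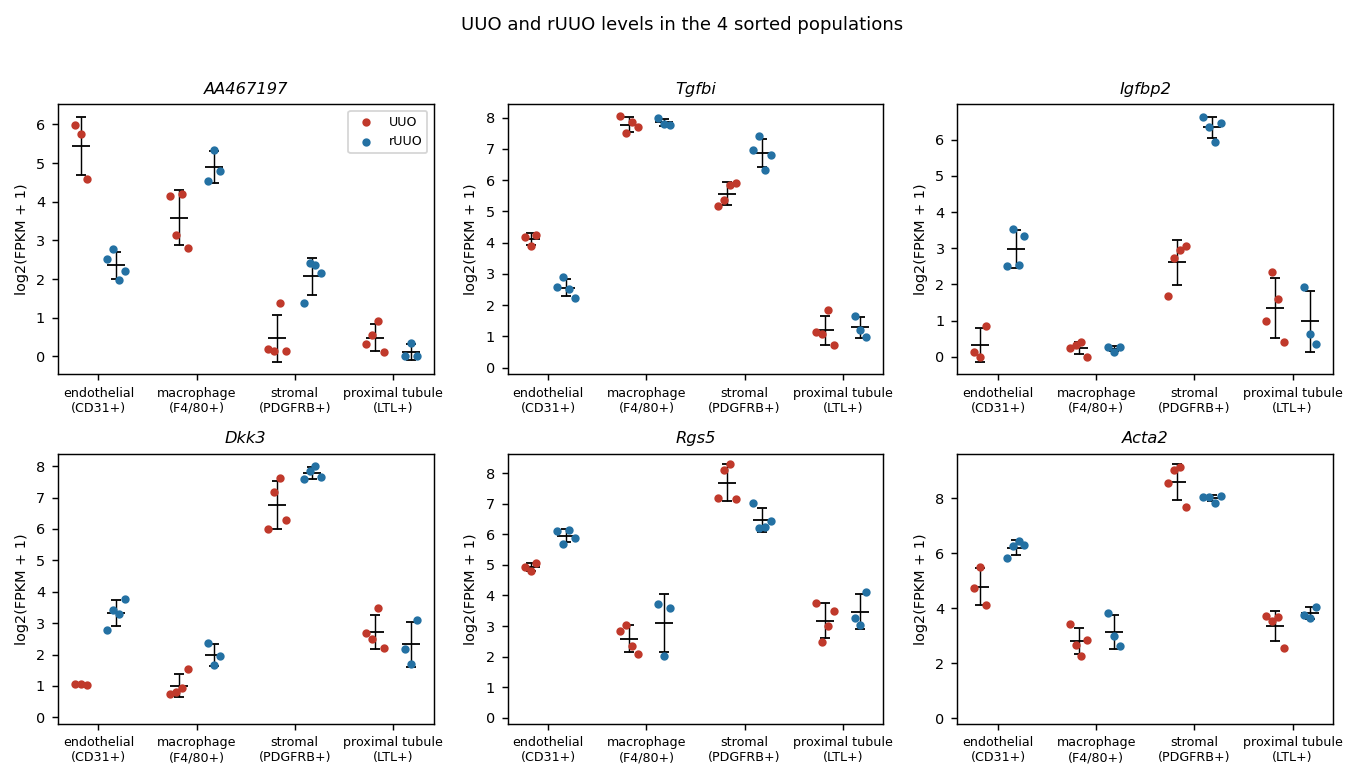
Level as log2(FPKM + 1) (vertical axis) of 6 genes in UUO (red) and rUUO (blue) samples of the 4 sorted populations (horizontal axis). Points are samples, bars are the mean and SD on the log2 scale; AA467197 and Tgfbi are lower in rUUO endothelial cells and higher in rUUO stromal cells, while Igfbp2 is higher in rUUO in both.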

How the data were processed

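CD31+ cells were sorted by flow cytometry, RNA was amplified (Ovation RNA-Seq System V2), sequenced, and 1 table of 53465 genes was deposited. The authors deposited FPKM with 2 decimals, aligned to mm10. The submitters' processing notes name FastQC, RSEM, Bowtie2 and DESeq2, and their settings are not given in the sources used here. Of 46 value columns, 2 that share 1 sample name were not used. FPKM keeps no counts, so depth was unknown, and relative depths estimated from low values were 0.865 to 1.189. Groups came from the labels. The title of PT UUO replicate 2 reads LTL+ SHAM UUO 2, and its treatment label, UUO, was followed. That sample entered every difference from PT cells.

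The 13393 genes that averaged 1 FPKM or more across the 11 endothelial samples were fitted as log2(FPKM + 1) with limma 3.58.1 in R 4.3.3, with an intensity trend. The sham samples shared the estimate of spread, and p-values were adjusted by Benjamini and Hochberg over all genes. Differences from other populations came from 1 fit over 44 samples. Summaries used Python 3.11.15 with pandas 2.3.3 and scipy 1.17.1. The scripts were tested on simulated data. Same-numbered samples had correlated deviations of 0.0153 to 0.0441, so the numbers were not taken as pairs. Alternatives changed the pseudocount, filter, scaling, samples and model. Named genes were the markers, called genes without overlap, called and most abundant list members, Adam10 and Tln2, and others were chosen after their values were seen. Abundant list members without values of their own are covered by the counts, and some genes that entered the counts are not reported here. The samples, gene lists and comparisons were chosen with earlier results of these data known.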

Additional observations from a re-analysis of the deposited data

Results flagged for a closer look

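In 9 of 154 groups of 4 samples, 1 sample lay far from the other 3 (Dixon's test), where chance gives about 1 in 20. In rUUO endothelial cells these were Wt1 at 4.41 FPKM in replicate 1 (9.51 to 11.02 FPKM in the others) and Ren1 at 1.22 FPKM in replicate 6 (4.80 to 5.61 FPKM). In sham replicate 1 AA467197 stood at 2.73 FPKM (0.20 to 0.43 FPKM in the others), H2-K1 at 1060 FPKM (864 to 882 FPKM) and 5830468F06Rik at 0.30 FPKM (0 in the others). Acta2 was low at 25.3 FPKM in sham replicate 2, Plvap at 57.0 FPKM in sham replicate 3 and Cdh5 at 219 FPKM in sham replicate 4, where Mdk-ps1 was at 1.72 FPKM and at 0 in the other sham samples.

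Among the 77 genes given with values, for 28 pairs of a gene and a population, the log2 change from UUO to rUUO in endothelial cells differed from that in the other population (limma adjusted p under 0.05). Against macrophages the differences were -4.40 for AA467197, 2.67 for Igfbp2, -1.88 for Ms4a6d, 2.31 for Slco1a4 and 1.92 for 5830468F06Rik. Against stromal cells they were -4.69 for AA467197, 2.02 for Acta2, -1.96 for Cav1, 5.64 for Cnn1, 5.16 for Gm15501, 2.27 for Igf1, 3.06 for Mdk-ps1, -2.11 for Ms4a6d, 2.24 for Rgs5, 2.63 for Slco1a4, -2.85 for Tgfbi and 1.67 for 5830468F06Rik. Against PT cells they were -2.73 for AA467197, 2.65 for Dkk3, 1.34 for Dnajb1, 4.30 for Gm15501, 3.02 for Igfbp2, 3.06 for Mdk-ps1, -2.33 for Ms4a6d, 2.15 for Slco1a4, -1.63 for Tgfbi, 1.56 for Vcam1 and 1.92 for 5830468F06Rik. Mdk-ps1 was at 0 FPKM in every UUO and rUUO sample of stromal and PT cells.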

How the results depend on the processing

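The count of 8 changed genes was 4 with a pseudocount of 0.1 (AA467197, Dkk3, Igfbp2 and Mdk-ps1 lost), 3 with UUO and rUUO samples alone, 5 with no intensity trend (Igfbp3 and Clic3 among those lost), 86 in the fit on all 4 populations (66 higher) and 2 to 9 with 1 replicate left out. It was 0 of 26704 genes with no filter on low values, where 2021 had an unadjusted p under 0.05 in limma. With the replicate block it was also 0 in limma, with 1044 genes at an unadjusted p under 0.05 and a smallest adjusted p of 0.0531, and same-numbered samples share only a number. It was 9 with TPM or without mitochondrial genes, 11 after quantile normalization and 8 with a fold change above 1.5. Differences from macrophages numbered 8 with a pseudocount of 0.1, 8 without mitochondrial genes and 11 after quantile normalization, against 18. Differences from stromal cells numbered 28 with a pseudocount of 0.1, against 96. Differences from PT cells numbered 520 with TPM, 139 without mitochondrial genes and 72 after quantile normalization, against 278. The log2 change of Pecam1 turned from -0.04 to 0.0436 with TPM, 0.0332 without mitochondrial genes, 0.036 after quantile normalization and 0.0155 without UUO replicate 2, and ranged from -0.121 to 0.0155 with 1 replicate left out. The mitochondrial share differed by -0.49 percentage points, and by -2.46 to 2.15 with 1 replicate left out (0.404, 1.26 and 2.15 without rUUO replicate 1, rUUO replicate 2 and UUO replicate 4). Of 1232 values of named genes under alternatives, 1161 kept their direction and side of the threshold, 53 lost and 14 gained a call, and 4 turned. The causes were not tested. With FPKM alone, low values such as those of Igfbp2 in UUO cannot be told from single reads.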
